A study of Nicotiana tabacum with 9 samples.

Results

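Plastid fatty acid synthesis was followed through 9 genes of tobacco pollen tubes, of the 74044 genes in the count tables. They encode homologs of the carboxyltransferase alpha subunit of acetyl-CoA carboxylase (alpha-CT, LOC107789406), of ketoacyl-ACP reductase (KAR, LOC107811394 and LOC107805249), of hydroxyacyl-ACP dehydrase (HAD, LOC107829909), of stearoyl-ACP desaturase (FAB2, LOC107774170 and LOC107762320), of the acyl-ACP thioesterases FATB (LOC107785685) and FATA (LOC107790423, listed as FATA2), and, for contrast, of a mitochondrial acyl carrier protein (MTACP1, LOC107769281). All 9 were found by gene name in the deposited annotation, and all 9 were present in every count table. The enzyme names are those that the study assigned by homology to Arabidopsis. The genes were picked with their difference between heat-stressed and nonstressed tubes known, so that difference is described here and not tested.

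Pollen of several plants of the cultivar Samsun-NN was pooled in each experiment and grown as tubes on cellophane over solid medium. HS 3 + 3 h stands for tubes kept 3 h at room temperature (RT) and then 3 h at 37°C (heat stress, HS), RT 6 h for tubes kept 6 h at RT, and RT 3 h for tubes harvested after 3 h at RT, and all 3 groups shared the first 3 h at RT. Each group had 3 libraries of mRNA, sequenced without keeping the strand. Whether the 3 samples of a group came from separate pollen pools is not given in the sources used here, so p-values may measure only technical spread.

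Fatty acids of plants are built in plastids by separate enzymes that act on a chain held by acyl carrier protein (ACP). The heteromeric acetyl-CoA carboxylase, made of biotin carboxylase, a biotin carrier (BCCP) and the alpha and beta carboxyltransferase subunits, makes the malonyl-CoA that feeds the cycle. Each turn condenses the chain with malonyl-ACP (ketoacyl-ACP synthases, KAS), reduces the product (KAR), removes water (HAD) and reduces it again (enoyl-ACP reductase). FAB2 then puts the first double bond into stearoyl-ACP, and the thioesterases FATA and FATB release free fatty acids for export, FATA preferring oleoyl-ACP and FATB saturated chains. Mitochondria hold a small fatty acid synthesis pathway of their own, known for making the precursor of lipoic acid. Growing pollen tubes draw on fatty acid synthesis for new membrane.

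The counts on genes were 14931693 to 24514332 per library in HS 3 + 3 h, 23393816 to 26511864 in RT 6 h and 22899975 to 26772286 in RT 3 h. The shallowest library was HS replicate 1, in which a CPM (counts scaled to one common library total) of 0.5 stood for 7.47 counts, against 13.4 in the deepest. Levels below are CPM scaled over all 9 libraries by TMM, a trimmed mean of log ratios. Scaling by library totals alone moved the median log2 fold change (log2FC) of all genes from 0.01 to -0.15 in HS 3 + 3 h against RT 6 h, and from 0.01 to -0.13 in RT 6 h against RT 3 h. Tobacco holds close copies of many genes, and without strand or a stated treatment of reads that fit several places, the level of a single copy carries that uncertainty. None of the 9 genes overlapped another annotated gene. In bulk tubes, fewer cells of a kind and less RNA per cell cannot be told apart. The annotation used gives no gene products, so no check of pollen markers was made.

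Under HS, 8 of the 9 genes were lower and 1 KAR was higher than in RT 6 h, and the 3 libraries of one group did not overlap those of the other in any of the 9. MTACP1, alpha-CT and HAD lay past a log2FC of -1, KAR LOC107811394 lay past 1, and FATA2 lay past -1 with counts near the limit of detection. Called differentially expressed were genes past an absolute log2FC of 1 with a false discovery rate (FDR, Benjamini-Hochberg over all genes) of at most 0.005 in edgeR's quasi-likelihood test. By these limits 4 of the 9 were called (1 higher, 3 lower), beside 9.11% of the 23053 genes tested (6.24% higher, 2.87% lower). Among all genes tested, the groups did not overlap in 50.4% (26.3% higher, 24.1% lower). Because the genes were chosen on this contrast, nothing is read from either count. The called count was 2 without HS replicate 2, without HS replicate 3 or without RT 6 h replicate 1.

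**Figure D1:**
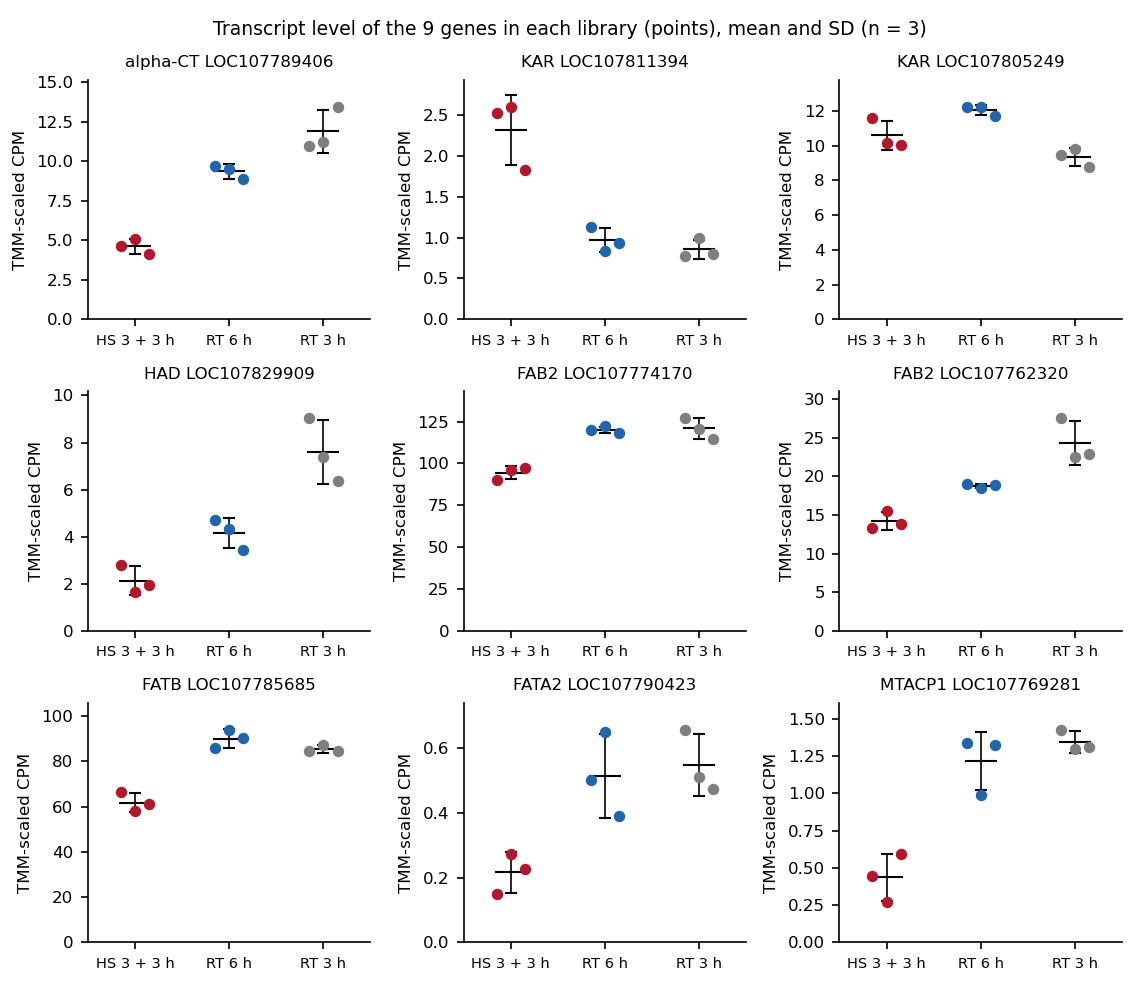
Transcript levels (TMM-scaled CPM, vertical axes from 0) of the 9 genes in HS 3 + 3 h (red), RT 6 h (blue) and RT 3 h (grey), with a point for each library and the mean and SD (n = 3) in black. The HS points lie below the RT 6 h points in 8 panels and above them for KAR LOC107811394, at 1.82 to 2.60 against 0.840 to 1.13 CPM.

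Alpha-CT, LOC107789406, lies on the minus strand of TN90 scaffold NW_015917043.1 from 48880 to 55734, with 3 transcripts in 12 merged exon blocks. It carries the step that transfers the carboxyl group to acetyl-CoA, together with a plastid-encoded partner that was not analysed here. Its level was 4.67, 5.06 and 4.14 CPM in HS replicates 1 to 3, 9.73, 9.51 and 8.86 CPM in RT 6 h, and 11.0, 11.3 and 13.5 CPM in RT 3 h. Every HS library thus lay below every RT 6 h library, and every RT 6 h library below every RT 3 h library. The log2FC was -1.02 (SE = 0.11) in HS 3 + 3 h against RT 6 h, just past the limit of -1. With single libraries left out it ranged from -1.10 to -0.93, so the call did not hold in each of these fits. In RT 6 h against RT 3 h the log2FC was -0.34 (SE = 0.10, FDR = 0.00845 by edgeR), which missed the FDR limit.

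None of the 8 other carboxylase genes was lower under HS within the FDR limit. The second alpha-CT copy, LOC107785788, was scarce, at 0.957 ± 0.365 CPM under HS and 1.24 ± 0.130 CPM at RT 6 h (SD, n = 3 each), with a log2FC of -0.30 (SE = 0.26, FDR = 0.371 by edgeR). Of the 3 BCCP2 genes, which encode the biotin carrier, 2 rose under HS. BCCP2 LOC107799007 had 6.59, 6.47 and 7.33 CPM in HS 3 + 3 h, against 4.47, 4.70 and 4.53 CPM in RT 6 h (log2FC = 0.58, SE = 0.12, FDR = 2.93e-05). BCCP2 LOC107808419 averaged 14.6 ± 1.48 CPM in HS 3 + 3 h and 12.0 ± 0.657 CPM in RT 6 h (log2FC = 0.30, SE = 0.08, FDR = 0.00198). Neither reached the log2FC limit. The FDR of LOC107808419 was above 0.005 in DESeq2 (0.0271), without TMM (0.16), with all 9 libraries in one fit (0.00621) and without HS replicate 2, HS replicate 3, RT 6 h replicate 2 or RT 6 h replicate 3 (0.0103 to 0.0394). The other 5 genes of the carboxylase, namely the third BCCP2, 2 BCCP1 and 2 biotin carboxylase genes, had FDRs of 0.116 or more.

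Summed over its 9 nuclear genes, the carboxylase stood at 40.2 ± 0.318 CPM in HS 3 + 3 h, 40.0 ± 1.52 CPM in RT 6 h and 38.7 ± 2.71 CPM in RT 3 h, and the groups overlapped. This sum adds different subunits, most of it from the 3 BCCP2 genes, so it does not give the level of the enzyme. Without TMM the sum was 36.3 ± 0.445 CPM in HS 3 + 3 h and 40.2 ± 1.24 CPM in RT 6 h, without overlap. The share of LOC107789406 in the RPKM (CPM per kb of merged exons) summed over these genes was 5.42%, 5.88% and 4.75% in HS 3 + 3 h, 12.5%, 11.6% and 11.7% in RT 6 h, and 16.0%, 15.9% and 17.6% in RT 3 h. The 3 BCCP2 genes held most of the rest. LOC107789406 thus held a smaller share of the RPKM of these 9 nuclear genes in every HS library than in any RT library. The gene was chosen with its HS difference known, so its share is a description only.

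KAR, the first reductase of the cycle, had 6 homologs, and the 2 described here had log2FCs of opposite sign under HS. KAR LOC107811394 lies on the minus strand of scaffold NW_015951903.1 between 49537 and 56059 and has 12 merged exon blocks. It had 34, 57 and 40 counts in HS replicates 1 to 3, against 27, 22 and 24 counts in RT 6 h and 20, 29 and 22 counts in RT 3 h. Scaled to depth these were 2.52, 2.60 and 1.82 CPM in HS 3 + 3 h, 1.13, 0.840 and 0.937 CPM in RT 6 h, and 0.772, 0.989 and 0.803 CPM in RT 3 h. All HS libraries were above all RT libraries, while the RT groups overlapped. The log2FC was 1.24 (SE = 0.22) in HS 3 + 3 h against RT 6 h, and 0.17 (SE = 0.25, FDR = 0.680 by edgeR) in RT 6 h against RT 3 h.

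KAR LOC107805249, on scaffold NW_015940595.1 (minus strand, 4700 to 9404, 11 merged exon blocks), had 11.6, 10.2 and 10.1 CPM in HS 3 + 3 h, 12.2, 12.2 and 11.7 CPM in RT 6 h, and 9.46, 9.82 and 8.76 CPM in RT 3 h. It was highest in RT 6 h, with the HS libraries between the RT groups. Its log2FC was -0.20 (SE = 0.09) in HS 3 + 3 h against RT 6 h. In RT 6 h against RT 3 h it rose by a log2FC of 0.37 (SE = 0.09, FDR = 0.00167 by edgeR), below the log2FC limit. That FDR was above 0.005 without RT 3 h replicate 2 (0.00527), RT 3 h replicate 3 (0.0132), RT 6 h replicate 1 (0.0097) or RT 6 h replicate 2 (0.0129), and it was 0.0083 in DESeq2 and 0.064 without TMM.

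Of the 4 other KAR copies, 2 fell within the FDR limit in RT 6 h against RT 3 h. KAR LOC107787149 averaged 10.1 ± 1.20 CPM in RT 6 h and 17.9 ± 1.24 CPM in RT 3 h (log2FC = -0.81, SE = 0.09, FDR = 7.18e-08 by edgeR), and LOC107761555 averaged 3.86 ± 0.496 CPM in RT 6 h and 5.51 ± 0.506 CPM in RT 3 h (log2FC = -0.50, SE = 0.13, FDR = 0.00388). For LOC107761555 the FDR was 0.0142 in DESeq2 and 0.021 to 0.034 without RT 3 h replicate 3, RT 6 h replicate 1 or RT 6 h replicate 2. The remaining 2, LOC107825415 and LOC107770582, had means of 0.494 to 1.10 CPM in all groups and did not pass the FDR limit in any comparison. Under HS none of these 4 passed it, with log2FCs between -0.20 and 0.38 in HS 3 + 3 h against RT 6 h.

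The summed KAR level was 30.1 ± 2.53 CPM in HS 3 + 3 h, 28.5 ± 1.43 CPM in RT 6 h and 35.5 ± 0.753 CPM in RT 3 h. HS and RT 6 h overlapped, and RT 6 h lay below RT 3 h without overlap. LOC107811394 held 6.74%, 7.63% and 5.65% of the KAR RPKM in HS 3 + 3 h, 3.50%, 2.64% and 2.67% in RT 6 h, and 1.84%, 2.41% and 1.90% in RT 3 h. It was thus a minor copy in every library. KAR LOC107761555 also had higher values under HS without overlap, at 5.93, 4.92 and 4.55 CPM in HS 3 + 3 h, against 3.38, 3.82 and 4.37 CPM in RT 6 h, but its log2FC of 0.38 (SE = 0.14, FDR = 0.0169 by edgeR) missed the FDR limit. LOC107805249 held 32.9 ± 0.759% under HS, 39.3 ± 2.98% at RT 6 h and 24.1 ± 1.73% at RT 3 h (SD, n = 3 each). LOC107811394 and LOC107805249 were chosen with their HS difference known, so their shares are a description only.

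**Figure D2:**
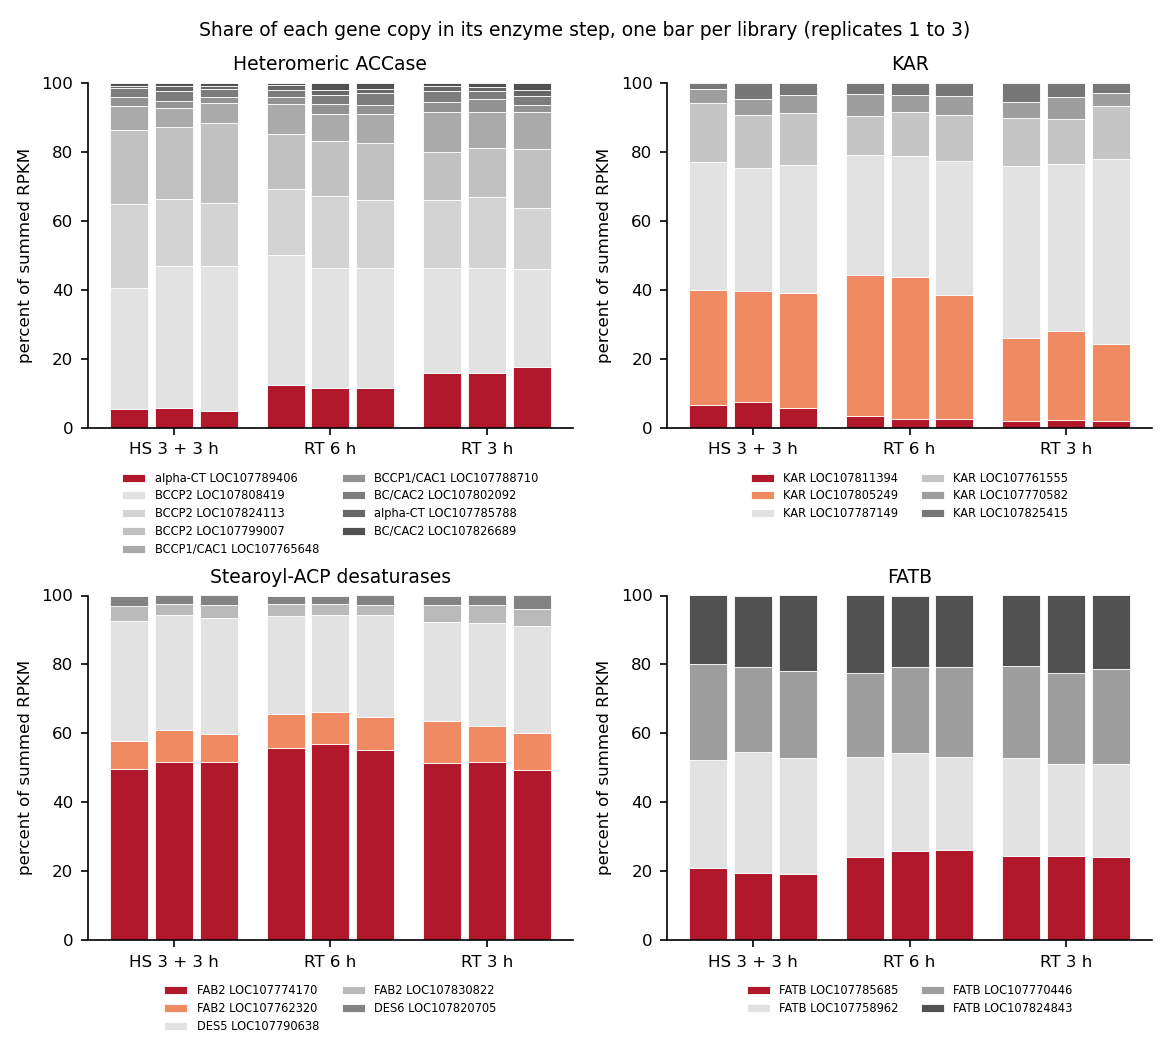
Share of each gene copy in the RPKM summed over its enzyme step (percent, vertical axes), with a stacked bar for each library, replicates 1 to 3 from left to right in HS 3 + 3 h, RT 6 h and RT 3 h, for the carboxylase, KAR, the desaturases and FATB. The genes described are in red and orange and their paralogs and partner subunits in grey. The alpha-CT block is 4.75% to 5.88% under HS against 11.6% to 12.5% at RT 6 h, and the red KAR block is 5.65% to 7.63% under HS against 2.64% to 3.50% at RT 6 h.

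HAD, LOC107829909, which removes water from the hydroxyacyl chain, is the only plastid copy in the list, on the minus strand of scaffold NW_015855544.1 at 13157 to 18265 with 4 merged exon blocks. It had 38, 36 and 43 counts in HS 3 + 3 h, 113, 113 and 88 counts in RT 6 h and 234, 217 and 174 counts in RT 3 h. In CPM these were 2.82, 1.64 and 1.96 in HS 3 + 3 h, 4.72, 4.31 and 3.44 in RT 6 h, and 9.04, 7.40 and 6.35 in RT 3 h. The 3 groups did not overlap. HAD fell during growth at RT, with a log2FC of -0.86 (SE = 0.13, FDR = 1.30e-05 by edgeR) in RT 6 h against RT 3 h, a contrast in which the RT 3 h libraries had no part in choosing the gene and the RT 6 h libraries had. Without TMM this log2FC was -1.01, past the limit.

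In HS 3 + 3 h against RT 6 h the log2FC of HAD was -1.02 (SE = 0.17). It ranged from -1.20 to -0.85 when single libraries were left out, and crossed the limit of -1 without HS replicate 2 (-0.85), HS replicate 3 (-0.97), RT 6 h replicate 1 (-0.93) or RT 6 h replicate 2 (-0.99). Against RT 3 h, the HS level was lower by a log2FC of -1.89 (SE = 0.17), a fold of 0.270. The 2 mitochondrial HAD homologs summed to 13.7 ± 1.28 CPM in HS 3 + 3 h, 12.8 ± 1.56 CPM in RT 6 h and 11.9 ± 1.07 CPM in RT 3 h, and the groups overlapped.

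The 2 FAB2 genes were both lower in every HS library than in any RT library. FAB2 LOC107774170, per length the highest of the 9, on the minus strand of scaffold NW_015899168.1 at 44746 to 48648 (3 merged exon blocks), had 90.2, 96.1 and 97.5 CPM in HS 3 + 3 h, 120, 122 and 118 CPM in RT 6 h, and 127, 121 and 115 CPM in RT 3 h. Its RT groups overlapped. Its log2FC was -0.34 (SE = 0.05) in HS 3 + 3 h against RT 6 h, and -0.00 (SE = 0.05, FDR = 0.986 by edgeR) in RT 6 h against RT 3 h, where it ranged from -0.044 to 0.027 with single libraries left out and was -0.15 without TMM.

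FAB2 LOC107762320, on the minus strand of scaffold NW_015876584.1 at 36012 to 39370 (3 merged exon blocks), had 13.3, 15.5 and 13.8 CPM in HS 3 + 3 h, 19.0, 18.5 and 18.9 CPM in RT 6 h, and 27.5, 22.5 and 22.9 CPM in RT 3 h. The 3 groups did not overlap. It was lower by a log2FC of -0.39 (SE = 0.08) in HS 3 + 3 h against RT 6 h, and it fell by 0.36 on the log2 scale (SE = 0.08, FDR = 0.000799 by edgeR) in RT 6 h against RT 3 h, below the log2FC limit. Without RT 6 h replicate 2 that FDR was 0.00988. Against RT 3 h, the HS level was lower by a log2FC of -0.77 (SE = 0.09).

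The third FAB2 copy, LOC107830822, averaged 6.85 ± 1.04 CPM in HS 3 + 3 h, 6.80 ± 0.534 CPM in RT 6 h and 11.9 ± 0.449 CPM in RT 3 h, and fell in RT 6 h against RT 3 h within the FDR limit (log2FC = -0.80, SE = 0.09, FDR = 2.07e-07 by edgeR), with a log2FC of -0.01 (SE = 0.11, FDR = 0.961) in HS 3 + 3 h against RT 6 h. DES5 LOC107790638, another desaturase of the same family, had 59.9 ± 0.568 CPM under HS and 58.8 ± 1.42 CPM at RT 6 h (log2FC = 0.03, SE = 0.05, FDR = 0.717). DES6 LOC107820705 stood near 1 CPM in both. The 5 desaturase genes together gave 177 ± 3.71 CPM in HS 3 + 3 h, 205 ± 0.653 CPM in RT 6 h and 226 ± 8.58 CPM in RT 3 h, without overlap, a ratio of 0.860 for HS 3 + 3 h over RT 6 h. The sum holds FAB2 LOC107774170 and LOC107762320, chosen with their HS difference known, so its HS difference is a description only.

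FATB, the thioesterase of saturated chains, had 4 abundant copies. The member LOC107785685, on the minus strand of scaffold NW_015912426.1 at 28706 to 31729 with 6 merged exon blocks, had 66.3, 57.8 and 61.0 CPM in HS 3 + 3 h, 85.7, 94.0 and 90.2 CPM in RT 6 h, and 84.4, 87.3 and 84.6 CPM in RT 3 h. All HS libraries were below all RT libraries. It had 895 to 2560 counts per library, and its log2FC in HS 3 + 3 h against RT 6 h was -0.55 (SE = 0.05). In RT 6 h against RT 3 h it was 0.08 (SE = 0.06, FDR = 0.315 by edgeR), and -0.063 without TMM.

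The other 3 FATB copies had log2FCs nearer 0 under HS than LOC107785685, which was chosen with its HS difference known. LOC107824843 fell under HS within the FDR limit, at 60.6 ± 4.49 CPM in HS 3 + 3 h and 70.4 ± 3.97 CPM in RT 6 h (log2FC = -0.21, SE = 0.05, FDR = 0.000568 by edgeR), with an FDR of 0.00775 without RT 6 h replicate 1 and of 0.0258 without HS replicate 2. LOC107770446 (log2FC = -0.15, FDR = 0.0146) and the most abundant copy, LOC107758962 (log2FC = 0.07, FDR = 0.243), did not pass it. LOC107758962 had 125 ± 4.95 CPM under HS and 119 ± 6.17 CPM at RT 6 h. Summed, FATB gave 317 ± 12.1 CPM in HS 3 + 3 h, 356 ± 9.004 CPM in RT 6 h and 354 ± 5.77 CPM in RT 3 h, a ratio of 0.889 for HS 3 + 3 h over RT 6 h. The share of LOC107785685 in the FATB RPKM was 19.9 ± 0.942% in HS 3 + 3 h, 25.5 ± 1.03% in RT 6 h and 24.3 ± 0.0900% in RT 3 h. The HS differences of this share and of the sum, which holds LOC107785685, are therefore descriptions only.

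FATA2 LOC107790423, the thioesterase of oleoyl-ACP, lies on the minus strand of scaffold NW_015918373.1 from 55768 to 59070 (6 merged exon blocks), 502 bp from LOC107790422 on the other strand. It was the scarcest of the 9, with 2, 6 and 5 counts in HS 3 + 3 h, 12, 17 and 10 counts in RT 6 h, and 17, 15 and 13 counts in RT 3 h. As CPM these were 0.148, 0.274 and 0.228 in HS 3 + 3 h, 0.501, 0.649 and 0.390 in RT 6 h, and 0.657, 0.512 and 0.475 in RT 3 h. The HS libraries lay below every RT library. However, the gene passed the filter on low counts (more than 0.5 CPM in at least 2 of 6 libraries) only through the RT group. A gene this scarce under HS could thus be tested only if it was higher at RT. The log2FC was -1.17 (SE = 0.47) in HS 3 + 3 h against RT 6 h, and -0.08 (SE = 0.33, FDR = 0.903 by edgeR) in RT 6 h against RT 3 h, where it was 0.059 without RT 3 h replicate 1 and 0.091 without RT 6 h replicate 3. The other FATA2 copy, LOC107807091, averaged 1.55 ± 0.167 CPM in HS 3 + 3 h and 1.73 ± 0.567 CPM in RT 6 h (log2FC = -0.13, SE = 0.22, FDR = 0.659). Together both copies gave 1.76 ± 0.227 CPM in HS 3 + 3 h and 2.25 ± 0.590 CPM in RT 6 h, and the groups overlapped.

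The mitochondrial MTACP1 LOC107769281 (scaffold NW_015889272.1, minus strand, 36136 to 41304, 2 merged exon blocks) had 6, 6 and 13 counts in HS 3 + 3 h, 32, 26 and 34 counts in RT 6 h, and 37, 38 and 36 counts in RT 3 h. In CPM it stood at 0.445, 0.274 and 0.592 in HS 3 + 3 h, 1.34, 0.993 and 1.33 in RT 6 h, and 1.43, 1.30 and 1.32 in RT 3 h. No HS library reached an RT library, and only HS replicate 3 exceeded 0.5 CPM, so this gene too was tested through its RT level. Its log2FC was the furthest from 0 of the 9, at -1.47 (SE = 0.33) in HS 3 + 3 h against RT 6 h, and -0.14 (SE = 0.22, FDR = 0.706 by edgeR) in RT 6 h against RT 3 h.

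None of the other 6 MTACP1 and 2 MTACP2 genes passed the FDR limit in HS 3 + 3 h against RT 6 h, where their log2FCs lay between -0.43 and 0.27. Their means were 0.410 to 3.00 CPM under HS. The summed mitochondrial ACP level was 11.3 ± 0.259 CPM in HS 3 + 3 h, 13.7 ± 1.42 CPM in RT 6 h and 15.6 ± 1.46 CPM in RT 3 h. LOC107769281 held 2.98 ± 1.06% of the mitochondrial ACP RPKM in HS 3 + 3 h, 6.97 ± 0.765% in RT 6 h and 6.90 ± 0.382% in RT 3 h. This gene too was chosen with its HS difference known, so its share is a description only.

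**Figure D3:**
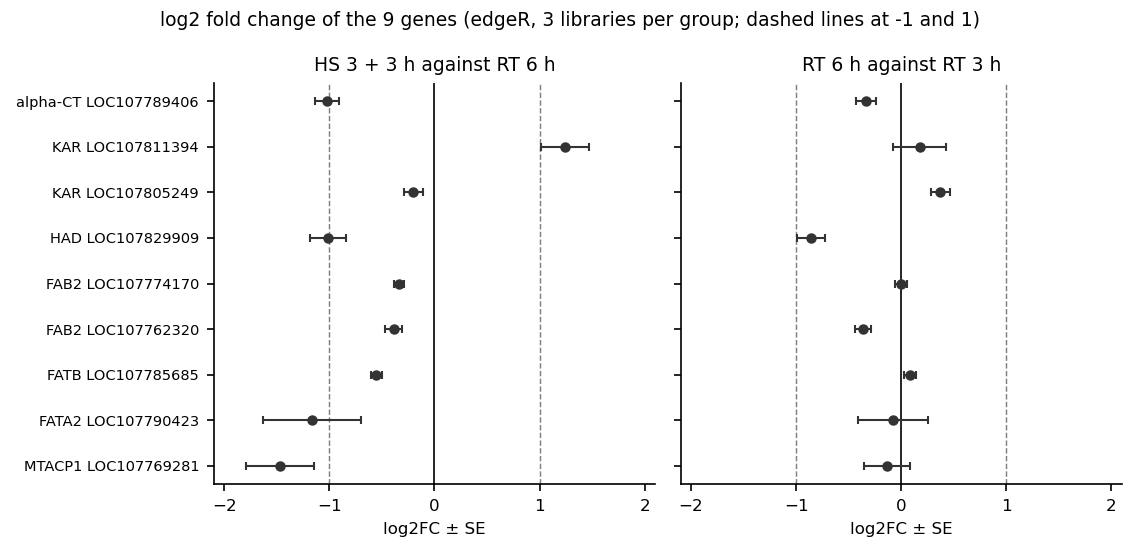
Log2FC with its standard error (horizontal axis) of the 9 genes in HS 3 + 3 h against RT 6 h (left) and RT 6 h against RT 3 h (right), each from 3 libraries per group, with dashed lines at -1 and 1. On the left 5 genes lie past a line, from -1.47 (MTACP1) to 1.24 (KAR LOC107811394), and on the right none does, HAD being furthest out at -0.86.

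During growth at RT, none of the 9 genes passed both limits in RT 6 h against RT 3 h, beside 1.70% of the 23043 genes tested (0.911% higher, 0.785% lower). DESeq2 called none either, and 1 (HAD) was called without TMM. In edgeR 4 of the 9 had an unadjusted p under 0.05. The share of all genes under that p was not taken, so nothing is read from this count. By the FDR limit alone 3 of the 9 changed, HAD and FAB2 LOC107762320 falling and KAR LOC107805249 rising, beside 15.3% of all genes tested (7.39% higher, 7.92% lower). The RT groups did not overlap in 4 of the 9 (1 higher, 3 lower), beside 38.5% of all genes tested (19.0% higher, 19.5% lower). The RT 6 h libraries entered the contrast on which the genes were chosen. In HS 3 + 3 h against RT 3 h, which shares its libraries with both other comparisons, 4 of the 9 were past both limits (1 higher, 3 lower), beside 12.3% of the 23373 genes tested (7.36% higher, 4.92% lower), and nothing is read from this. The log2FCs there were -1.37 for alpha-CT, 1.40 for KAR LOC107811394, -1.26 for FATA2 and -1.62 for MTACP1. KAR LOC107805249 had 0.16 in that contrast with TMM and -0.12 without it.

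Per length of exon, the order of the levels was nearly the same in the 3 groups. FAB2 LOC107774170 led with 55.8 ± 2.29 RPKM in HS 3 + 3 h, 70.8 ± 1.23 RPKM in RT 6 h and 71.3 ± 3.60 RPKM in RT 3 h. FATB LOC107785685 followed with 35.9 ± 2.49 RPKM in HS 3 + 3 h, 52.3 ± 2.43 RPKM in RT 6 h and 49.7 ± 0.944 RPKM in RT 3 h. The third was FAB2 LOC107762320, at 9.16 ± 0.744 RPKM in HS 3 + 3 h, 12.1 ± 0.164 RPKM in RT 6 h and 15.6 ± 1.80 RPKM in RT 3 h. These top 3 did not overlap each other or the rest in any group.

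Below them came KAR LOC107805249 with 7.16 ± 0.565 RPKM in HS 3 + 3 h, 8.14 ± 0.201 RPKM in RT 6 h and 6.32 ± 0.364 RPKM in RT 3 h. In RT 3 h it overlapped HAD, which had 1.81 ± 0.514 RPKM in HS 3 + 3 h, 3.51 ± 0.555 RPKM in RT 6 h and 6.42 ± 1.143 RPKM in RT 3 h. HAD and alpha-CT overlapped in HS 3 + 3 h and in RT 6 h, alpha-CT having 1.59 ± 0.158 RPKM in HS 3 + 3 h and 3.21 ± 0.155 RPKM in RT 6 h. KAR LOC107811394 ranked seventh under HS, at 1.46 ± 0.269 RPKM and overlapping alpha-CT, and eighth at RT 6 h, at 0.609 ± 0.0921 RPKM and overlapping FATA2. MTACP1 and FATA2 closed the order under HS at 0.445 ± 0.162 and 0.202 ± 0.0591 RPKM.

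The wider pathway was taken as the 72 genes that the study assigned to fatty acid synthesis, chosen by homology among genes detected in these libraries, and therefore not independent of them. In HS 3 + 3 h against RT 6 h, 4 of these 72 were past both limits (1 higher, 3 lower), or 5.56% beside 9.11% of all genes tested, and all 4 are among the 9 genes described. Without HS replicate 3 the count was 2. By the FDR limit alone 18 of the 72 changed (5 higher, 13 lower), beside 31.9% of all genes tested (17.5% higher, 14.4% lower). The median log2FC was -0.17 over the list, which holds the 9 chosen genes, -0.15 over the 63 others and 0.01 over all genes. Of the 63 other genes none was past both limits in edgeR's quasi-likelihood test or in DESeq2, and 11 passed the FDR limit (4 higher, 7 lower). The 9 were picked with this contrast known, so where the calls fell was largely set by that choice and nothing is read from it. With single libraries left out, some of the 63 were called. In edgeR 18 of the 63 had an unadjusted p under 0.05. No share of all genes was taken at that p, so nothing is read from it.

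**Figure D4:**
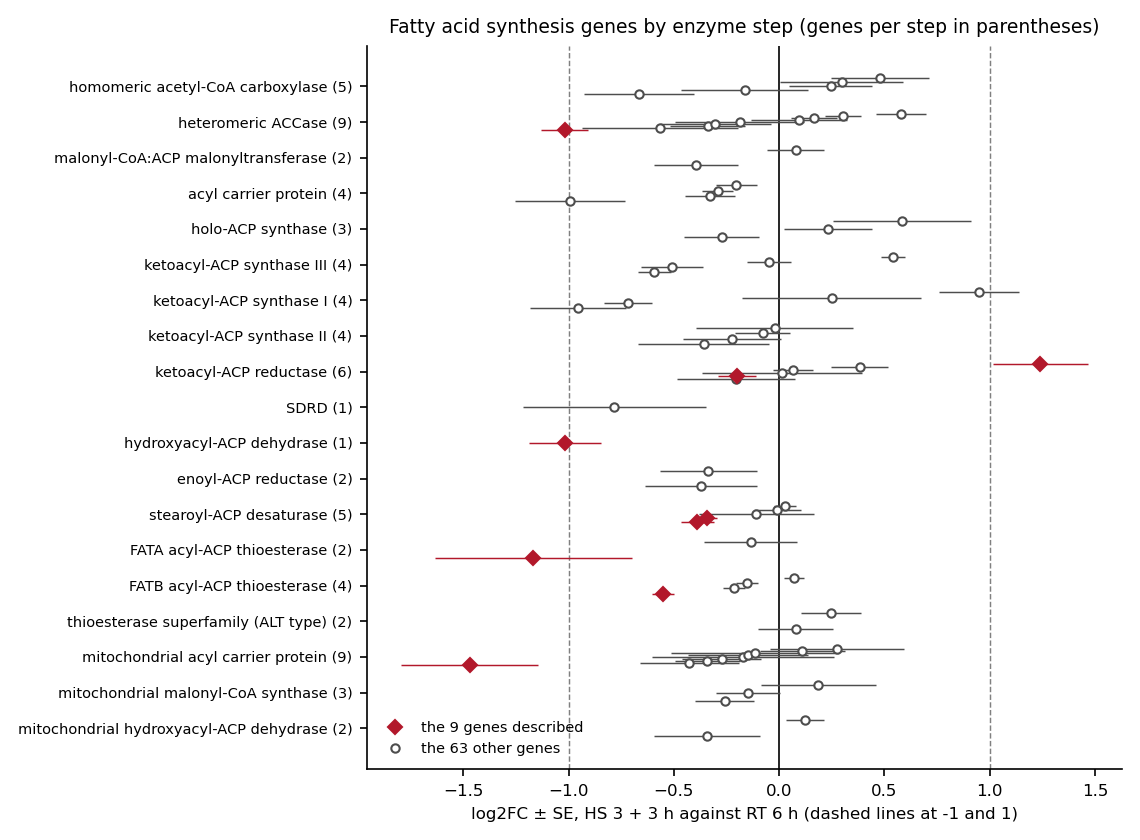
Log2FC with its standard error (horizontal axis) in HS 3 + 3 h against RT 6 h of the 72 fatty acid synthesis genes, 1 row per enzyme step with the number of its genes. Red diamonds are the 9 genes described, open circles the 63 others, and dashed lines mark -1 and 1. The open circles lie between -0.99 and 0.95, and 5 diamonds lie past a line.

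The 63 others came close to the limits at the carrier protein and at the condensing step. ACP2 LOC107806266, a plastid acyl carrier protein, had 0.815, 0.957 and 0.637 CPM in HS 3 + 3 h, against 1.96, 1.49 and 1.37 CPM in RT 6 h (log2FC = -0.99, SE = 0.26, FDR = 0.00101 by edgeR), just outside the limit (-1.15 without TMM), and it was past both limits in HS 3 + 3 h against RT 3 h (log2FC = -1.22). Its FDR in HS 3 + 3 h against RT 6 h was 0.0156 in DESeq2, 0.0138 without RT 6 h replicate 1 and 0.0217 without HS replicate 3, and in HS 3 + 3 h against RT 3 h it was 0.00526 without HS replicate 3. All 4 plastid ACP genes had lower values under HS than at RT 6 h without overlap, and 2 of them passed the FDR limit, beside 24.1% of all genes tested that were lower without overlap and 14.4% that were lower within the FDR limit. Their sum was 31.4 ± 2.23 CPM in HS 3 + 3 h, 38.6 ± 1.15 CPM in RT 6 h and 50.9 ± 4.84 CPM in RT 3 h. Among the 4 KASI genes 1 rose and 2 fell within the FDR limit under HS, which 31.9% of all genes tested passed (17.5% higher, 14.4% lower). The 2 that fell were LOC107763810 (log2FC = -0.95, SE = 0.23) and LOC107784232 (log2FC = -0.72, SE = 0.11), the most abundant copy. Summed, KASI gave 9.24 ± 0.655 CPM in HS 3 + 3 h and 11.9 ± 0.829 CPM in RT 6 h, lower under HS without overlap. KASI LOC107803192, the copy that rose, singled out after its values were seen, had 2.74, 2.83 and 2.78 CPM in HS 3 + 3 h, 1.59, 1.41 and 1.33 CPM in RT 6 h, and 2.66, 2.42 and 2.99 CPM in RT 3 h. It was lower in RT 6 h than in both other groups, with a log2FC of 0.95 (SE = 0.19, FDR = 1.85e-05) in HS 3 + 3 h against RT 6 h and of -0.89 (SE = 0.18, FDR = 0.000343) in RT 6 h against RT 3 h. Of the 4 KASIII genes 1 rose and 2 fell within the FDR limit under HS, and the copy that rose was the most abundant. Summed, KASIII gave 78.45 ± 2.08 CPM in HS 3 + 3 h and 69.4 ± 3.16 CPM in RT 6 h, higher under HS without overlap. Without TMM it gave 70.7 ± 1.54 and 69.7 ± 3.37 CPM, and the groups overlapped. Of the 4 KASII and 2 enoyl-ACP reductase genes none passed the FDR limit.

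In RT 6 h against RT 3 h, 71 of the 72 were tested and none was past both limits, in edgeR or in DESeq2. An unadjusted p under 0.05 in edgeR was reached by 20, a count with no share of all genes beside it and from which nothing is read. By the FDR limit 10 changed (2 higher, 8 lower), beside 15.3% of all genes. In HS 3 + 3 h against RT 3 h, 5 of 71 were past both limits (1 higher, 4 lower), or 7.04% beside 12.3% of all genes tested (7.36% higher, 4.92% lower), the fifth being ACP2 LOC107806266. Without TMM this count was 13, beside 3726 of the 23373 genes tested. All 72 genes summed to 754 ± 11.7 CPM in HS 3 + 3 h, 827 ± 6.79 CPM in RT 6 h and 872 ± 7.06 CPM in RT 3 h, and the 9 genes alone to 191 ± 1.25 CPM in HS 3 + 3 h, 257 ± 5.39 CPM in RT 6 h and 262 ± 8.91 CPM in RT 3 h. Most of the difference between HS 3 + 3 h and RT 6 h in the sum of the 72 lay in these 9 genes. They were picked with that contrast known, so nothing is read from the HS difference of either sum.

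For each of the 9 genes the most alike gene over the 9 libraries was sought by Pearson's r of log2 CPM among 24013 genes. The 9 libraries fall into 3 groups, so such an r mostly compares group means and is given as a description. Among all genes the highest r lay between 0.977 and 0.993, with LOC107782703 for alpha-CT (0.992), LOC107786829 for KAR LOC107811394 (0.993) and LOC107829152 for HAD (0.991), genes for which the annotation gives no product. Within the list, HAD was most like BCCP1 LOC107765648 (0.963), FAB2 LOC107762320 like ACP5 LOC107798154 (0.962), and FAB2 LOC107774170 and FATA2 like each other (0.963). Alpha-CT (0.938) and FATB (0.953) were both most like KASI LOC107784232. MTACP1 was most like FATB (0.905), and KAR LOC107805249 like the mitochondrial HAD LOC107811334 (0.792). For KAR LOC107811394 the closest gene of the list was a thioesterase homolog, LOC107827593 (0.852).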

How the data were processed

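Pollen tube mRNA was measured by RNA-seq in 9 libraries, 3 per condition, mapped to conditions by their labels. The authors demultiplexed reads with bcl2fastq 2.17.1.14, aligned them to TN90 with STAR 2.5.2a and deposited featureCounts 1.5.0-p1 counts per gene, as raw whole numbers. The counting rule for reads with several matches is not given in the sources used here. Library totals ran from 14931693 to 26772286 counts. Gene positions and exon lengths come from the deposited TN90 annotation (base positions, unit other). The 9 genes and the list of 72 were chosen with earlier results of these data known.

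The 6 libraries of a comparison made up its fit, in R 4.3.3 with edgeR 4.0.16 (TMM, quasi-likelihood F test, Benjamini-Hochberg), keeping genes above 0.5 CPM in 2 or more libraries. Called genes had an absolute log2FC above 1 and an FDR of at most 0.005. SE is the absolute log2FC over the root of F. An exact permutation test of 3 against 3 libraries cannot go below p = 0.1, so summed levels and shares have no test. The fit was tested on simulated data. RPKM used merged exon lengths. No pair of replicates agreed within sampling noise, the chi-square per degree of freedom being 1.78 to 6.93.

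Named genes are the 9, their paralogs by enzyme name or step, other listed genes past both limits, the most alike genes (log2 CPM, prior count 2), and neighbours within 10000 bp, of which 6 lie by 4 of the genes. KASI LOC107803192 and LOC107763810 fall outside this rule. Alternatives were the likelihood ratio test, DESeq2 1.42.0 or its size factors, no TMM, a fit without the filter or with a minimum of 10 counts throughout, a joint fit of the 9 libraries, a replicate block, an FDR limit of 0.05, each library left out, gene spans for exon lengths, and Spearman's rho. Python 3.11.15 and pandas 2.3.3 made the summaries. After the values were seen, these alternatives were also applied to other listed genes named as changed, except KASI LOC107763810 and LOC107784232.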

Additional observations from a re-analysis of the deposited data

How the results depend on the processing

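In HS 3 + 3 h against RT 6 h the 9 genes gave 4 calls, and leaving out single libraries gave 2 to 4, with 2 to 6 of the 72 listed genes against 4. HAD and alpha-CT, at a log2FC of -1.02 each, lie at the limit. Without TMM the calls were 1 of 9 and 2 of 72 in RT 6 h against RT 3 h (0 and 0 with TMM), 6 of 72 in HS 3 + 3 h against RT 6 h, and 6 of 9 and 13 of 71 in HS 3 + 3 h against RT 3 h, and fold changes shifted with the median of all genes. Over all genes, calls without TMM were 1169 higher and 1071 lower in HS 3 + 3 h against RT 6 h (1439 and 661 with TMM), 134 and 339 in RT 6 h against RT 3 h (210 and 181), and 1161 and 2565 in HS 3 + 3 h against RT 3 h (1720 and 1150). Summed levels without TMM had these ratios in HS 3 + 3 h over RT 6 h: FATB 0.798 (0.889 with TMM), carboxylase 0.902, KAR 0.948 (1.06 with TMM) and desaturases 0.771. In RT 6 h over RT 3 h they were 0.916 for FATB (1.01 with TMM), 0.943 for the carboxylase (1.04 with TMM), 0.731 for KAR and 0.826 for the desaturases.

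Signs turned for values near 0. FATB in RT 6 h against RT 3 h was -0.063 and KAR LOC107805249 in HS 3 + 3 h against RT 3 h -0.12 without TMM. In RT 6 h against RT 3 h, FAB2 LOC107774170 ranged from -0.044 to 0.027 and FATA2 from -0.28 to 0.091 with single libraries left out, positive without RT 3 h replicate 1 or RT 6 h replicate 3. By Spearman's rho the most alike gene was another one for all 9 genes, with 1 to 15 genes tied at the top, and for 4 of 9 within the list. With gene spans in place of exon lengths, 4 of the 9 ranks at RT 6 h changed.

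Whether replicate numbers pair the libraries is not settled, and no label says that a number marks a shared pool. The deviations of same-numbered libraries correlated at -0.019 to 0.0056 between HS 3 + 3 h and RT 6 h, and at -0.0075 to 0.014 between HS 3 + 3 h and RT 3 h. Between RT 6 h and RT 3 h they correlated at 0.018, 0.059 and 0.11. There, libraries of numbers 1 and 3 correlated best with their own number, and those of number 2 did not. With the replicate number as a block, 3 of the 9 genes were called in HS 3 + 3 h against RT 6 h (HAD at -0.99), 0 in RT 6 h against RT 3 h and 4 in HS 3 + 3 h against RT 3 h. Over all genes the block gave 2064, 415 and 2799 calls in these comparisons (2100, 391 and 2870 without it), and in RT 6 h against RT 3 h 4527 genes passed the FDR limit alone (3527 without it). Depth limits MTACP1 and FATA2, at 2 to 13 counts per HS library.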
